A study of Homo sapiens with 8 samples.

Results

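Long noncoding RNA (lncRNA) genes held 3171 of the 31395 peak intervals of an ac4C immunoprecipitation in osteosarcoma cells, which is 10.1% of all peaks, in 1930 genes. A peak was taken when it overlapped the span of exactly 1 annotated GRCh38 gene, that gene was of type lncRNA, and no protein-coding gene span was touched. Peaks in the ribosomal RNA block on the short arm of chromosome 21 were left out, as were 23 peaks in MALAT1, NEAT1 and genes whose symbols start with SNHG. The choice rested on position and on no count, although intervals exist only where the authors found a peak. The gene table holds spans and no exons, and the strand setting of the counts was not given, so a peak in a span can come from an exon, an intron or another transcript over the same place.

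The study recovered fragmented poly(A) RNA with an antibody against N4-acetylcytidine (acRIP-seq) in the human osteosarcoma lines 143B and HOS, of which 143B descends from HOS. Its groups were 143B labelled sgNAT10 (NAT10 knockout), 143B NC (control), HOS labelled sgNAT10 and HOS NC, with 1 acRIP library each. No treatment or time point is given in the labels, and whether the knockout cells were 1 clone or a pool was not given in the sources used here. The comparison asks how ac4C-enriched RNA from lncRNA genes differed between knockout and control cells.

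Totals over all peaks ranged from 20107718 to 24785306 counts, and the median lncRNA-gene peak had 22 counts in 143B labelled sgNAT10, 12 in 143B NC, 14 in HOS labelled sgNAT10 and 6 in HOS NC. NAT10's own peak (chr11:34146656-34146807) went against the 143B label, with 130 counts in the library labelled sgNAT10 and 65 in NC. In HOS it had 63 counts in the library labelled sgNAT10 and 180 in NC. The position of the cut that inactivates the gene is not given in the labels, so this peak is only a partial check of the knockout. Across the 3171 peaks, the 143B library labelled sgNAT10 also stood apart, with Spearman correlations of 0.479 to 0.599 to the other libraries, against 0.697 to 0.764 among those. Over all 31395 peaks it stood apart too, with 0.583 to 0.718 against 0.803 to 0.865. Of 12 mesenchymal and osteoblast markers 7 had a peak, with summed levels of 339 CPM (TMM-scaled counts over library size) in 143B labelled sgNAT10, 613 CPM in 143B NC, 1040 CPM in HOS labelled sgNAT10 and 1060 CPM in HOS NC. Most of that sum was vimentin (VIM), while COL1A1, COL1A2, FN1, TWIST1 and THY1 had no peak. Of the markers of other cell types, those of blood (2 of 6 with a peak) summed to at most 1.08 CPM in every library. Endothelial markers (2 of 4 with a peak) summed to 8.33 CPM in 143B labelled sgNAT10 and 8.16 CPM in 143B NC, and to 39.2 CPM in HOS labelled sgNAT10 and 2.59 CPM in HOS NC. KDR, a receptor for vascular growth factors, made up most of the HOS gap, with 855 counts in HOS labelled sgNAT10 and 18 in HOS NC, while PECAM1 and CDH5 had no peak. Epithelial markers (3 of 7 with a peak) summed to 89.1 CPM in 143B labelled sgNAT10 and 64.0 CPM in 143B NC, and to 108 CPM in HOS labelled sgNAT10 and 121 CPM in HOS NC. Within that list CDH1 (E-cadherin) had 812 counts in HOS labelled sgNAT10 and 5 in HOS NC, and EPCAM had no peak. Neural markers (2 of 4 with a peak) summed to 26.2 CPM in 143B labelled sgNAT10 and 25.6 CPM in 143B NC, and to 17.4 CPM in HOS labelled sgNAT10 and 16.4 CPM in HOS NC. The KDR and CDH1 peaks were thus high in the same library as many of the HOS results below, and their part in those results was not tested.

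NAT10 is the enzyme that writes ac4C, an acetylated cytidine best known from 18S ribosomal RNA and from transfer RNA, and reported in messenger RNA as well. In 18S ribosomal RNA the acetylated base lies in the triplet CCG, and runs of CNN triplets have been described in acRIP peaks. LncRNAs are transcripts without a long open reading frame. Some act as scaffolds or decoys for proteins, some host microRNAs or small nucleolar RNAs, and for most of those with a LOC or LINC name no function is established.

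Peaks at an annotated start of a lncRNA gene can be set beside sequence, and 5 of them with a mean of 100 or more counts are shown for that reason. Of the 1930 genes, 1221 were matched in the RefSeq promoter table (GRCh38.p14), which gives 250 bases before to 50 after each start. Among these windows 18, in 17 genes, overlapped a lncRNA-gene peak. The 5 windows are those of LOC124904704 (chr19:35575391-35575690, plus strand), PANTR1 (chr2:104851427-104851726, minus strand), LINC00632 (chrX:140782931-140783230, plus strand), LOC124904336 (chr18:79952559-79952858, plus strand) and LINC02076 (chr17:18410909-18411208, plus strand). The LINC00632 peak lay 7830 bp from the nearer end of the gene span, so that window marks a start inside the span. Each window is written 5′ to 3′ on the gene's strand, with every CCG in capitals.
LOC124904704: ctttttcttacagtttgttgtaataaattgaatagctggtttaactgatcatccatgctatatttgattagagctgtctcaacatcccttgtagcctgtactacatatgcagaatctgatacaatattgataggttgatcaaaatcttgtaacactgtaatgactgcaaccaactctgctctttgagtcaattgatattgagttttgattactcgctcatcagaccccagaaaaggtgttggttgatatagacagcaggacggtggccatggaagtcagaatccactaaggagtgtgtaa
PANTR1: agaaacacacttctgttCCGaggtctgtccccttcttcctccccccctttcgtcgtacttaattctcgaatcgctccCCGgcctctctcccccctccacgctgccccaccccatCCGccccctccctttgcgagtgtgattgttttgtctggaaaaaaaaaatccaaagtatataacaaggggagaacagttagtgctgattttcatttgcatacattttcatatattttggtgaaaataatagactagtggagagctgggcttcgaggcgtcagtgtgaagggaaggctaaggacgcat
LINC00632: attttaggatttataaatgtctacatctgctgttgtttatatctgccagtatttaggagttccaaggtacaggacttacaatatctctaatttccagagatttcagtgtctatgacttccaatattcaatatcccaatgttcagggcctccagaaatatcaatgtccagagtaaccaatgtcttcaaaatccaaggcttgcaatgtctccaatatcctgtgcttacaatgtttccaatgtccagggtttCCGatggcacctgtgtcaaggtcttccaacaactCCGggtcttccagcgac
LOC124904336: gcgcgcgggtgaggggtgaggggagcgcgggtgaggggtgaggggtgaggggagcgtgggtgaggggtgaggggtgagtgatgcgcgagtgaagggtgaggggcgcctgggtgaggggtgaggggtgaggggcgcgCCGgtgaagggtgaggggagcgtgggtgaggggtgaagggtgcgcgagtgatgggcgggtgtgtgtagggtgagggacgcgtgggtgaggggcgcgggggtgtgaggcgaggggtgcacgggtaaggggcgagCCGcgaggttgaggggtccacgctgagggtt
LINC02076: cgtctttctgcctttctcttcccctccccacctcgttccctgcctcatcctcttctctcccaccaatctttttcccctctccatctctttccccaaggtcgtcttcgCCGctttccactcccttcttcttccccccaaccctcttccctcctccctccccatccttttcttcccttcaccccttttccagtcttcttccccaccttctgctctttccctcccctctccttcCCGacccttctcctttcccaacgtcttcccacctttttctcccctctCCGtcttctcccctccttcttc

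CCG occurred 0 times on the gene strand in the LOC124904704 window, 3 times in PANTR1, 2 times in LINC00632, 2 times in LOC124904336 and 3 times in LINC02076. Over all 35097 promoter windows of the table, 80.9% held CCG on the gene strand (88.1% on either strand), with a median of 4 matches, so none of the 5 was rich in it. Overlapping matches to 4 CNN triplets in a row, where N is any base, on the gene strand numbered 13 in PANTR1 and 22 in LINC02076, whose windows hold long pyrimidine runs, against 2 in LINC00632 and 0 in LOC124904704 and LOC124904336. This pattern was present on the gene strand of 74.9% of all windows (90.3% on either strand), with a median of 2 matches and a 95th percentile of 15. Matches were counted over the whole window of 300 bases, and only part of each window lay in a peak. The peak covered 143 bases in LOC124904704, 291 in PANTR1, 80 in LINC00632, 91 in LOC124904336 and 53 in LINC02076. These counts of matches describe letters and do not locate ac4C.

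The peaks over these starts were mostly lower in the 143B library labelled sgNAT10. Of the 18 peaks that overlap a promoter window, 16 had a negative shift in 143B and 12 a positive shift in HOS, where a shift is the difference in log2 CPM, labelled sgNAT10 over NC, with a prior count of 1. Among all tested peaks 48.5% were negative in 143B and 63.3% positive in HOS, so the HOS count was near the background. With library totals alone in place of TMM, 15 were negative in 143B and 17 positive in HOS. LINC02076 had 12 counts in 143B labelled sgNAT10 and 157 in 143B NC at its start peak (chr17:18411156-18411484), and 207 in HOS labelled sgNAT10 and 47 in HOS NC. Its shift was -4.07 in 143B (-5.19 to -3.36) and 1.77 in HOS (1.32 to 2.28). Intervals here and below are 95% intervals for counting error between 2 libraries only, and they treat every read as a separate molecule, which libraries without molecular identifiers cannot show. LINC00632, the locus known to give rise to the circular RNA CDR1-AS, had 86 counts in 143B labelled sgNAT10 and 204 in 143B NC at chrX:140783151-140783527, and 570 in HOS labelled sgNAT10 and 189 in HOS NC. At LOC124904704 the counts were 1137 in 143B labelled sgNAT10 and 1531 in 143B NC, and 1309 in HOS labelled sgNAT10 and 1136 in HOS NC. Its libraries therefore lay close together in HOS, with a shift of -0.15, while 143B gave -0.93.

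Most lncRNA-gene peaks were narrow and thinly covered. Their median width was 124 bp (95 to 9225 bp), against 135 bp over all peaks, and their median mean count over the 4 libraries was 14.5. Of the 3171, 639 had 0 counts in at least 1 library, 445 had a mean of 50 or more and 207 of 100 or more. By symbol, 1802 lay in genes with a LOC number, 720 in LINC genes, 248 in antisense genes, 140 in divergent transcripts and 69 in microRNA host genes. A single peak was found in 1316 of the genes, and 80 genes had 5 or more. A gene end was 500 bp away or nearer for 133 peaks. Exactly 108 bp was the width of 716 peaks (22.6%), against 16.9% of all peaks.

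A few peaks held much of the counts. LINC01666, on the short arm of chromosome 21, held 31.8% of all lncRNA-gene counts in 143B labelled sgNAT10 and 46.3% in 143B NC, and 34.5% in HOS labelled sgNAT10 and 68.9% in HOS NC. Its 2 peaks of 108 bp (chr21:8773921-8774029 and chr21:8786328-8786436) had 59055 and 59076 counts in 143B labelled sgNAT10, and 59834 and 59827 in 143B NC. In HOS they had 65985 and 65979 counts in the library labelled sgNAT10, and 126983 and 126943 in NC. For each of the 2, 16 intervals on chromosome 21, of 104 to 2787 bp and 15 of them outside genes, had counts within 5% in all 4 libraries. They are therefore not separate measurements, and LINC01666 cannot be credited with these reads. No other of the 22 lncRNA-gene peaks with a mean of 1000 or more counts had such a match.

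Without LINC01666, lncRNA-gene peaks took 1.13% of all peak counts in 143B labelled sgNAT10 and 0.69% in 143B NC, and 1.19% in HOS labelled sgNAT10 and 0.463% in HOS NC. With it the shares were 1.66% in 143B labelled sgNAT10 and 1.28% in 143B NC, and 1.81% in HOS labelled sgNAT10 and 1.49% in HOS NC. The order of HOS turned round once counts in the ribosomal RNA block were taken out of the total, with LINC01666 kept: 3.15% in HOS labelled sgNAT10 and 3.75% in HOS NC, against 2.52% in 143B labelled sgNAT10 and 2.24% in 143B NC. Without LINC01666 the order of HOS did not turn round outside that block. There HOS labelled sgNAT10 had 250877 of 12143151 counts in lncRNA-gene peaks, and HOS NC had 114788 of 9845009. Shares sum to a whole, and they were not tested.

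Next in level per length was LOC105376413, a 108 bp peak at chr10:11671136-11671244 with a mean of 13500 CPM per kb, against 34600 for each LINC01666 peak. It had 62995 counts in 143B labelled sgNAT10 and 9886 in 143B NC, and 44766 in HOS labelled sgNAT10 and 20748 in HOS NC. Both libraries labelled sgNAT10 were higher than both NC libraries. Its shifts were 2.17 in 143B (2.14 to 2.20) and 0.76 in HOS (0.73 to 0.78). LOC107986059, with 7 peaks, moved less: its main peak on chromosome 3 had 3703 counts in 143B labelled sgNAT10 and 2115 in 143B NC, and 1825 in HOS labelled sgNAT10 and 1140 in HOS NC. There the shifts were 0.31 in 143B (0.23 to 0.39) and 0.33 in HOS (0.22 to 0.44).

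Over the 2183 lncRNA-gene peaks with enough counts to be tested, in 1480 genes, the median shift was 0.23 in 143B and 0.68 in HOS. All 24467 peaks tested had medians of 0.05 and 0.31, so lncRNA-gene peaks lay 0.18 above them in 143B and 0.37 above them in HOS. In HOS, 806 lncRNA-gene peaks (36.9%) were at least 2-fold higher in cells labelled sgNAT10, against a background of 24.4% of all tested peaks, and 78 (3.57%) were lower, against 8.74%. Peaks outside annotated genes (8218 tested) were much nearer to them in HOS, with a median of 0.52, 30.7% higher and 3.57% lower, whereas peaks in protein-coding genes (13349 tested) had 18.6% higher and 12.6% lower. The gap to all peaks was therefore in large part a gap to protein-coding genes. In 143B, 500 (22.9%) were higher by 2-fold or more, against 20.1%, and 281 (12.9%) were lower, against 21.4%. There the share of higher peaks was near the background, and fewer were lower. Peaks outside annotated genes had 22.7% higher and 10.2% lower in 143B, so fewer lower peaks were not particular to lncRNA genes. Higher in both lines were 228 (10.4%, background 5.76%, and 8.65% outside genes), and lower in both were 5 (0.229%, background 1.57%, and 0.377% outside genes). Lower in 143B and higher in HOS were 136 (6.23%), close to the 6.2% of all tested peaks (4.04% outside genes). The opposite way went 10 (0.458%, background 1.73%, and 0.414% outside genes). With 1 library per line and genotype none of these counts has a replicate check, and in bulk cells fewer cells making a transcript and less RNA per cell cannot be told apart.

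Classes of gene name differed little in HOS. LINC genes (485 tested peaks) and LOC genes (1236) had medians of 0.23 and 0.26 in 143B and 0.68 each in HOS. For antisense genes (165) the medians were 0.08 in 143B and 0.69 in HOS, and for divergent transcripts (107), which start beside a protein-coding promoter and run away from it, 0.04 and 0.51. Of the divergent peaks 2 (1.87%) were 2-fold higher in both lines, and of the LINC peaks 62 (12.8%), on either side of the 10.4% of all tested lncRNA-gene peaks. Position along the gene showed a gap in 143B: the 37 tested peaks near a 5′ end (within the same 500 bp) had a median of -0.46 there and 0.56 in HOS, and the 37 near a 3′ end had 0.16 and 0.67. Of the 5′ peaks, 13 (35.1%) were 2-fold lower in 143B labelled sgNAT10, and of the 3′ peaks 8 (21.6%). The difference between these classes was not tested, and peaks near 5′ ends include the wide start peaks of PANTR1 and others.

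The direction in 143B depended on how well a peak was covered. The 1962 lncRNA-gene peaks with a mean count under 20, tested or not, lay at a median of 0.87 in 143B and 0.84 in HOS. At means of 20 to 49 (764 peaks) the medians were 0.16 in 143B and 0.49 in HOS, and at 50 to 99 (238 peaks) they were -0.15 and 0.51. The lines thus parted as coverage grew. The 207 peaks with a mean of 100 or more had -0.52 in 143B and 0.54 in HOS. Under the 4 other scalings these medians ran from -0.60 to -0.17 in 143B and from 0.27 to 1.12 in HOS. Peaks in protein-coding genes of that coverage (4103 peaks) had -0.76 in 143B and -0.27 in HOS, and the 1385 outside annotated genes had -0.02 and 0.30. Protein-coding medians in HOS from the lowest to the highest coverage were 0.56, 0.22, -0.03 and -0.27, and in 143B they were 0.65, -0.17, -0.49 and -0.76, so lncRNA-gene peaks lay above them in each class of both lines. Whether depth itself had a part in the low-count shifts was not tested.

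**Figure D1:**
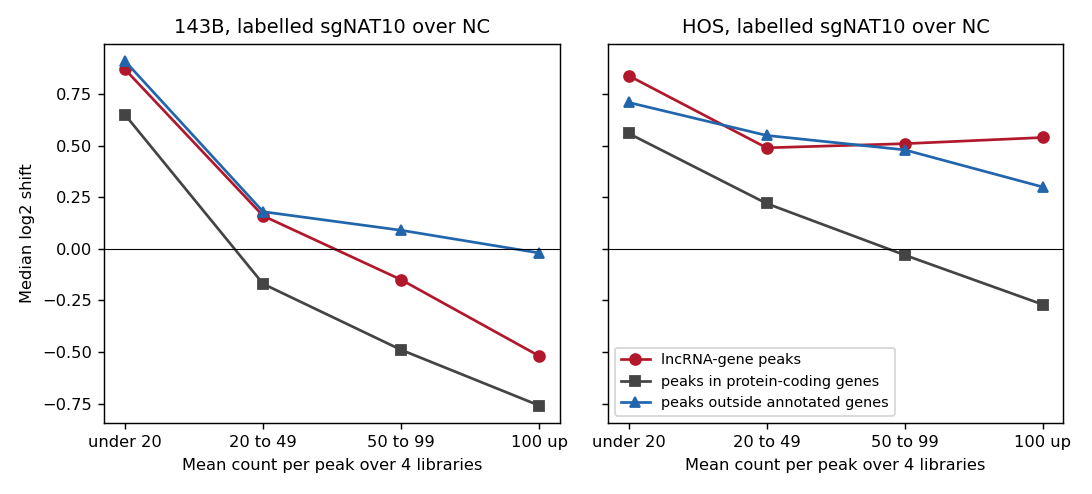
Median log2 shift, labelled sgNAT10 over NC, in 143B (left panel) and HOS (right panel), for peaks grouped by their mean count over 4 libraries (horizontal axis). Lines join the medians of lncRNA-gene peaks, peaks in protein-coding genes and peaks outside annotated genes. For lncRNA-gene peaks the 143B median is 0.87 under 20 counts and -0.52 at 100 or more, while the HOS median is 0.84 and 0.54.

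Across both lines, no lncRNA-gene peak passed the edgeR quasi-likelihood test with cell line as a block (0 of 2183 after Benjamini-Hochberg adjustment over all 24467 peaks, background 0.0%). The fit had 1 residual degree of freedom, and the smallest adjusted p of a lncRNA-gene peak was 0.0893. At an unadjusted p under 0.05 there were 132 (127 higher and 5 lower in the libraries labelled sgNAT10), which is 6.05%, against 3.86% of all peaks. Before adjustment DESeq2 had 40 such peaks (1.83%, against 2.04% of all peaks), so the excess over the background was not seen there. Limma-trend had 139 (6.37%, against 4.45%), and both called 0. Limiting the fit to peaks with a mean of 50 or more counts called 0 of 445 lncRNA-gene peaks and 0 of all 9655. With a limit of 100 or more counts it called 3 of 207 lncRNA-gene peaks and 7 of all 5938 (0.118%). The 3 lncRNA-gene peaks were LOC105376413 (log2 fold change 1.63, adjusted p 0.0134 in edgeR), LINC00351 (adjusted p 0.00095 in edgeR) and LOC105372529 (adjusted p 0.00095 in edgeR). LINC00351 and LOC105372529 were not among the 2183 tested in the main fit. They reached a mean of 100 only through HOS labelled sgNAT10.

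LINC00351 and LOC105372529 each rested on 1 library. At LOC105372529 (chr20:11399363-11399467) the library HOS labelled sgNAT10 had 868 counts and HOS NC 0, and 143B labelled sgNAT10 had 1 count and 143B NC 0. At LINC00351 (chr13:85506913-85507098) HOS labelled sgNAT10 had 445 counts and HOS NC 0, with 3 in 143B labelled sgNAT10 and 0 in 143B NC. Taking 3 counts per library as the floor, these were at least 227-fold and at least 116-fold higher in HOS labelled sgNAT10. A count of 100 or more in this library with at most 10 in each other library was found at 12 of the 3171 lncRNA-gene peaks. In all it was found at 125 of the 31395 peaks, a nearly equal share. The same rule found 3 lncRNA-gene peaks and 7 peaks in all in 143B labelled sgNAT10, 0 and 1 in 143B NC, and 0 and 3 in HOS NC.

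The 2 lines also parted by peak width. Peaks under 150 bp (1143 tested) gave medians of 0.26 in 143B and 0.73 in HOS, and those between 150 and 300 bp (787) gave 0.27 and 0.51. Both narrow classes were positive in both lines. The 211 peaks between 300 and 1000 bp gave medians of -0.02 in 143B and 0.90 in HOS. At 1000 bp or more there were 42 peaks, in 32 genes, with -1.72 in 143B and 1.39 in HOS. Of these 42, 34 were negative in 143B and all 42 were positive in HOS (41 with DESeq2-type or upper quartile factors, 39 with TMM computed without the ribosomal RNA block), and 25 (59.5%) were 2-fold lower in 143B and 2-fold higher in HOS. All 890 peaks of that width in the series had medians of -0.68 and 0.49, and the 391 in protein-coding genes had -2.12 and 0.93. The same 2-fold opposite movement was seen in 23.3% of all 890, in 37.6% of those in protein-coding genes and in 7.87% of the 432 outside genes. The differences between these shares were not tested, and neighbouring wide peaks of 1 gene are not independent.

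**Figure D2:**
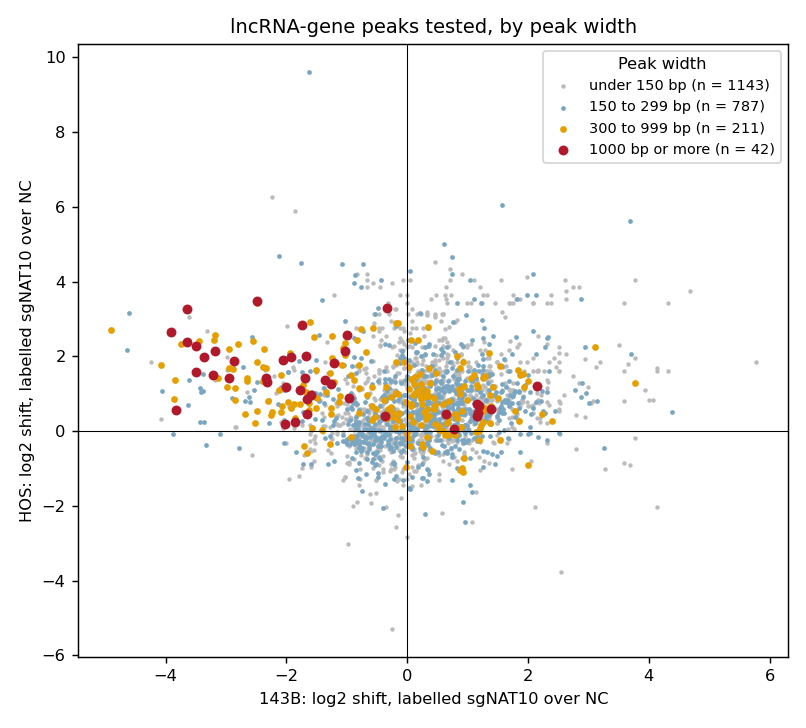
Log2 shift, labelled sgNAT10 over NC, of each of the 2183 tested lncRNA-gene peaks in 143B (horizontal axis) and HOS (vertical axis), one point per peak, coloured by peak width. The 42 peaks of 1000 bp or more all lie above 0 in HOS, and 34 of them lie left of 0 in 143B.

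The widest lncRNA-gene peak, of 9225 bp, lay over LOC105372708 and ran past the end of its span (chr20:62374797-62384022). That gene span is chr20:62373815-62378827, so more of the peak lay past the span than in it. The peak had 1732 counts in 143B labelled sgNAT10 and 13853 in 143B NC, and 38640 in HOS labelled sgNAT10 and 10130 in HOS NC. Shifts were -3.50 in 143B (-3.57 to -3.43) and 1.58 in HOS (1.55 to 1.61). Its libraries followed the order HOS labelled sgNAT10, 143B NC, HOS NC and 143B labelled sgNAT10 in counts. The neighbouring RPS21-DT, the divergent transcript of a ribosomal protein gene, was low in the same library, with 114 counts in 143B labelled sgNAT10 and 480 in 143B NC, and 2206 in HOS labelled sgNAT10 and 322 in HOS NC. It was picked after its values were seen, as were LOC105374257, NR2F1-AS1, FRG1-DT, SRP14-DT, MCPH1-AS1 and the promoter peaks above. LOC105374128 (chr3:138048635-138053318) had 255 counts in 143B labelled sgNAT10 and 1690 in 143B NC, against 3458 in HOS labelled sgNAT10 and 959 in HOS NC. NR2F1-AS1, antisense to the nuclear receptor gene NR2F1, had a 2569 bp peak with 131 counts in 143B labelled sgNAT10 and 1333 in 143B NC, and 1823 in HOS labelled sgNAT10 and 961 in HOS NC.

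PANTR1, a lncRNA beside the transcription factor gene POU3F3, showed the opposite movement along its length. Of its 13 peaks, 10 were negative in 143B and 13 positive in HOS, with medians of -0.76 and 3.25. Under upper quartile factors or library totals alone, 8 of the 13 were negative in 143B. The peak at its start (chr2:104851436-104853220), which covers 291 bases of the promoter window printed above, had 32 counts in 143B labelled sgNAT10 and 353 in 143B NC, and 970 in HOS labelled sgNAT10 and 120 in HOS NC. The 3449 bp peak inside the gene (chr2:104822923-104826372) had 107 counts in 143B labelled sgNAT10 and 699 in 143B NC, and 2730 in HOS labelled sgNAT10 and 483 in HOS NC. Summed over the gene, the shift was -3.06 in 143B (-3.28 to -2.84) and 2.44 in HOS (2.33 to 2.56).

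LINC01237 held the largest number of peaks, 30, of which 27 were negative in 143B and 30 positive in HOS (27 with TMM computed without the ribosomal RNA block). Its summed counts were 1488 in 143B labelled sgNAT10 and 2340 in 143B NC, and 5321 in HOS labelled sgNAT10 and 2594 in HOS NC. The gene did not move as 1 unit in 143B: shifts ran from -2.68 to 0.84, and the 3 positive peaks all lay 71.65 kb or more from the gene start. LOC105376755, with 11 peaks the third by number, was unlike both, with 9 of 11 positive in 143B and 8 of 11 in HOS. Its summed counts were 355 in 143B labelled sgNAT10 and 166 in 143B NC, and 250 in HOS labelled sgNAT10 and 145 in HOS NC.

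**Figure D3:**
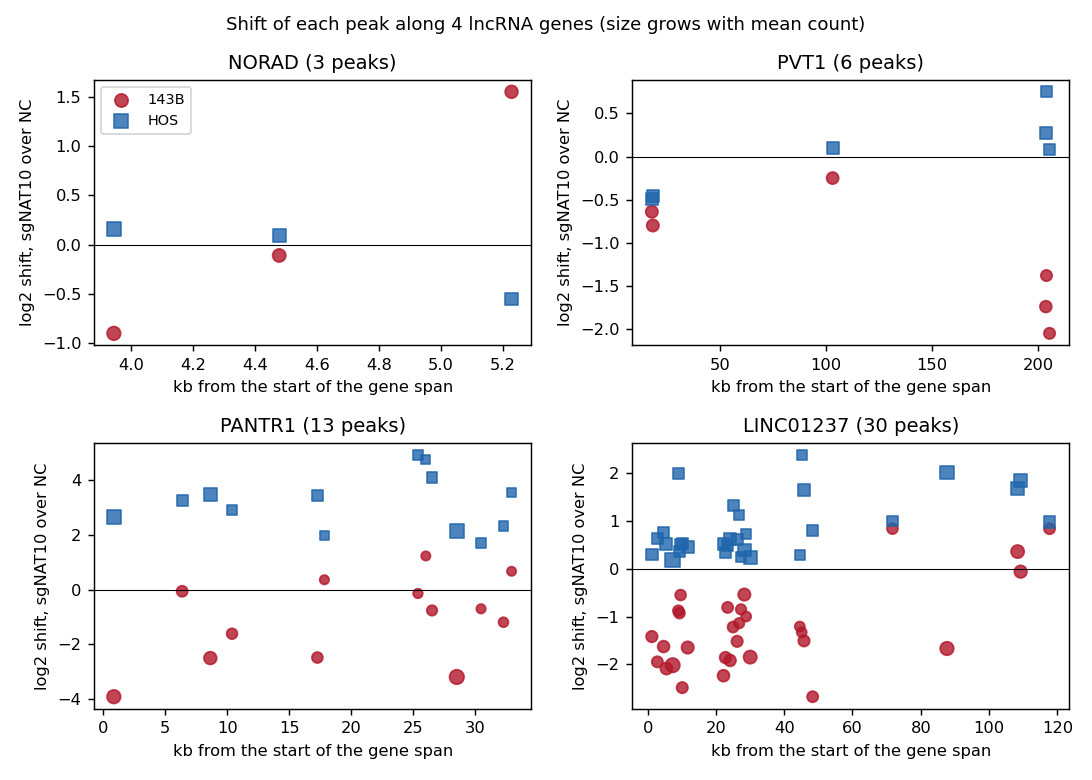
Log2 shift, labelled sgNAT10 over NC, of every lncRNA-gene peak in NORAD, PVT1, PANTR1 and LINC01237, against the distance of the peak's centre from the gene start in kb (for PVT1, whose strand is not in the tables used here, from the lower coordinate). Circles are 143B, squares are HOS, and larger symbols have higher mean counts. In PANTR1 all 13 HOS values are positive, and in LINC01237 27 of 30 values in 143B are negative.

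FRG1-DT, the divergent transcript of FRG1, and SRP14-DT, that of SRP14, had wide and narrow peaks side by side. The 1082 bp peak of FRG1-DT (chr4:189835711-189836793) had 582 counts in 143B labelled sgNAT10 and 1568 in 143B NC, and 2148 in HOS labelled sgNAT10 and 429 in HOS NC. A 194 bp peak of the same gene had shifts of -0.87 in 143B and -0.24 in HOS, so the 2 peaks differed in HOS. A 260 bp peak moved as the wide one did, with -1.79 in 143B and 1.89 in HOS. Of the 5 FRG1-DT peaks, 4 were negative in 143B and 4 positive in HOS. In SRP14-DT the 2697 bp peak had 432 counts in 143B labelled sgNAT10 and 614 in 143B NC, and 2313 in HOS labelled sgNAT10 and 305 in HOS NC, with shifts of -1.0 and 2.57. Its 193 bp peak had 1.41 in 143B and 0.96 in HOS. The remaining tested SRP14-DT peaks, narrow ones among them, ran from -1.07 to 0.92 in 143B and from 1.66 to 2.22 in HOS. MCPH1-AS1, antisense to the chromosome condensation gene MCPH1, had 3 peaks, all negative in 143B (-3.64 to -2.87) and positive in HOS (1.87 to 2.37).

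At some wide peaks HOS labelled sgNAT10 was well above the other libraries. LOC105376063 (chr9:41757031-41758796) had 249 counts in 143B labelled sgNAT10 and 222 in 143B NC, and 993 in HOS labelled sgNAT10 and 79 in HOS NC, shifts of -0.33 and 3.29, so that it moved mainly in HOS. LOC284600, with wide peaks side by side on chromosome 1, had 301 counts in 143B labelled sgNAT10 and 495 in 143B NC at the wider (chr1:908813-911107), and 2038 in HOS labelled sgNAT10 and 451 in HOS NC, shifts of -1.21 and 1.82. PSMG3-AS1, antisense to a proteasome assembly gene, had 73 counts in 143B labelled sgNAT10 and 217 in 143B NC, and 602 in HOS labelled sgNAT10 and 125 in HOS NC, shifts of -2.05 and 1.91. In all 3 the library HOS labelled sgNAT10 was the highest of the 4, and LOC284600 and PSMG3-AS1 passed 2-fold in both lines. They too were named after their values were seen.

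Wide peaks that were higher in 143B labelled sgNAT10 numbered 8, each in a different gene. The strongest by count was LOC107984006 (7646 bp, chr9:40594873-40602519), with 15139 counts in 143B labelled sgNAT10 and 4806 in 143B NC, and 3172 in HOS labelled sgNAT10 and 1509 in HOS NC. LOC105371217 (4106 bp, chr1:144824523-144828629) had 8905 counts in 143B labelled sgNAT10 and 2398 in 143B NC, and 1958 in HOS labelled sgNAT10 and 1010 in HOS NC. LOC124902169 (3639 bp, chr9:64722150-64725789) had 4757 counts in 143B labelled sgNAT10 and 1486 in 143B NC, and 1115 in HOS labelled sgNAT10 and 553 in HOS NC. In all 3 the library labelled sgNAT10 exceeded the NC library of its line, and both 143B libraries exceeded both HOS libraries. How reads with several matches in the genome were counted is not given, and these peaks lie near centromeres in regions known for duplicated sequence, so their gene of origin is uncertain.

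Among 69 lncRNAs linked to cancer in general knowledge, 19 had a lncRNA-gene peak, with 47 peaks of which 37 were tested and 0 passed edgeR (background 0.0%). Their medians were -0.02 in 143B and 0.18 in HOS, below the 0.23 and 0.68 of all tested lncRNA-gene peaks and nearer to the 0.05 and 0.31 of all peaks tested. In 143B 18 were positive and 19 negative, and in HOS 24 were positive and 13 negative. HOX cluster lncRNAs (18 genes) and imprinted-locus lncRNAs (20 genes) each had 1 peak, so neither group could be described.

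NORAD, a cytoplasmic lncRNA that binds Pumilio proteins and is needed for genome stability, is short enough to compare peaks within 1 transcript. Its peak near the 3′ end (chr20:36045630-36045827, 12 bp from the end of the span) had 305 counts in 143B labelled sgNAT10 and 73 in 143B NC, and 112 in HOS labelled sgNAT10 and 129 in HOS NC. Shifts were 1.55 in 143B (1.19 to 1.95) and -0.55 in HOS (-0.93 to -0.18). The middle peak (chr20:36046420-36046535) was level, with 253 counts in 143B labelled sgNAT10 and 193 in 143B NC, and 267 in HOS labelled sgNAT10 and 197 in HOS NC, shifts of -0.11 and 0.09. The peak farthest from the 3′ end (chr20:36046938-36047104) went the other way in 143B, with 300 counts in 143B labelled sgNAT10 and 396 in 143B NC, a shift of -0.90 (-1.12 to -0.68), and 0.16 in HOS. The sum of the 3 peaks hid this, with -0.12 in 143B (-0.27 to 0.02) and 0.02 in HOS (-0.13 to 0.17). The direction of the HOS peaks varied with the scaling. With library totals alone 3 were positive in HOS, and with TMM computed without the ribosomal RNA block 0 were. In 143B 2 were negative with TMM, and 1 with upper quartile factors or library totals alone.

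DANCR and ZFAS1 both host small nucleolar RNAs, and both have been studied as growth-promoting transcripts in tumours. DANCR had 1 peak (chr4:52713918-52714122), with 569 counts in 143B labelled sgNAT10 and 226 in 143B NC, against 274 in HOS labelled sgNAT10 and 430 in HOS NC. The lines moved in opposite directions, by 0.83 (0.61 to 1.06) in 143B and -1.0 (-1.23 to -0.78) in HOS. In ZFAS1 (chr20:49288964-49289219) the counts were 534 in 143B labelled sgNAT10 and 235 in 143B NC, and 538 in HOS labelled sgNAT10 and 451 in HOS NC. Its shift was 0.68 in 143B (0.46 to 0.91), and -0.10 in HOS (-0.28 to 0.09), where the interval holds 0. Neither passed edgeR across lines (adjusted p 0.992 for DANCR and 0.984 for ZFAS1).

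PVT1, the lncRNA next to MYC, had 6 peaks, all negative in 143B (-2.05 to -0.25). With library totals alone 1 of the 6 turned positive. The first pair, 17.77 and 18.21 kb from the lower end of the span, had 94 and 90 counts in 143B labelled sgNAT10 and 104 and 112 in 143B NC, and 86 and 87 in HOS labelled sgNAT10 and 95 and 94 in HOS NC. Raw counts were close there, but on the scaled values both libraries labelled sgNAT10 were lower, with shifts of -0.64 and -0.80 in 143B and -0.49 and -0.46 in HOS. The 3 peaks at 203.52 to 205.3 kb were lower in 143B, at -1.74, -1.38 and -2.05, and at 0.27, 0.75 and 0.08 in HOS. Summed over the gene, the shift was -0.88 in 143B (-1.09 to -0.66) and -0.02 in HOS (-0.21 to 0.17), and the direction of the HOS peaks varied with the scaling.

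OIP5-AS1, the human counterpart of the lncRNA cyrano, had 68 counts in 143B labelled sgNAT10 and 18 in 143B NC, and 37 in HOS labelled sgNAT10 and 32 in HOS NC, shifts of 1.38 (0.65 to 2.26) and -0.14 (-0.86 to 0.59). CRNDE, named for its expression in colorectal tumours, had 47 counts in 143B labelled sgNAT10 and 19 in 143B NC, and 39 in HOS labelled sgNAT10 and 27 in HOS NC. LINC-PINT, induced by p53, had 46 counts in 143B labelled sgNAT10 and 58 in 143B NC, and 42 in HOS labelled sgNAT10 and 29 in HOS NC, a shift of -0.82 in 143B (-1.42 to -0.25). CCDC26 had 12 counts in 143B labelled sgNAT10 and 58 in 143B NC, and 15 in HOS labelled sgNAT10 and 4 in HOS NC, a 143B shift of -2.65 (-3.80 to -1.86). For NUTM2A-AS1, DLEU1, CASC2, MEG8 and both SOX2-OT peaks the intervals held 0 in both lines, so differences were not detectable at this depth.

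**Figure D4:**
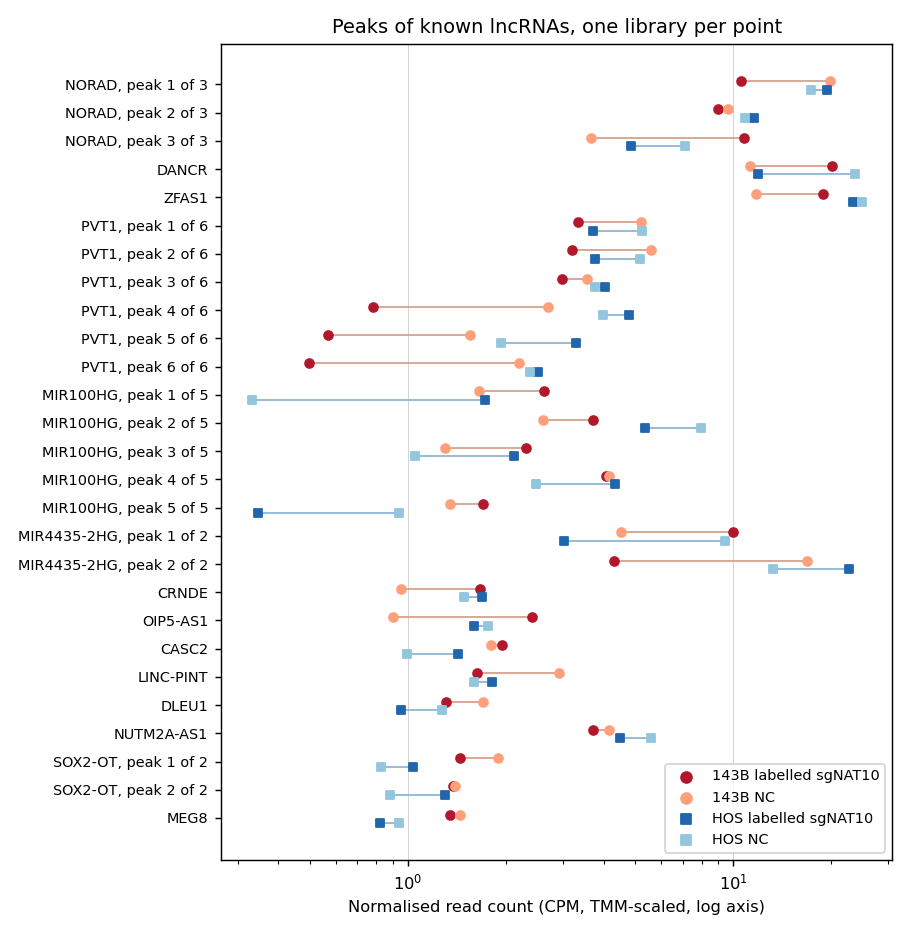
Normalised read count (CPM, log axis) of peaks in known lncRNAs with a mean count of 20 or more, one symbol per library: 143B labelled sgNAT10 and 143B NC as circles, HOS labelled sgNAT10 and HOS NC as squares, joined by a line within each cell line, with peaks of 1 gene numbered among those shown. DANCR is higher in the library labelled sgNAT10 in 143B and lower in HOS, and the NORAD peak nearest the 3′ end (peak 3 of 3) shows the widest gap of the NORAD peaks in 143B.

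MicroRNA host genes are transcribed as long precursors from which microRNAs are cut. Of 87 such genes 25 had a lncRNA-gene peak, with 69 peaks and 55 tested, of which 0 passed edgeR. Their medians, 0.17 in 143B and 0.71 in HOS, lay near those of all tested lncRNA-gene peaks. Past 2-fold in 143B were 14 higher (25.5%, against 20.1% of all tested peaks) and 13 lower (23.6%, against 21.4%), both near the background. In HOS 20 were higher (36.4%, against 24.4%) and 5 lower (9.09%, against 8.74%).

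MIR4435-2HG had 2 peaks of opposite order. Its 110 bp peak (chr2:111429344-111429454) had 282 counts in 143B labelled sgNAT10 and 90 in 143B NC, and 70 in HOS labelled sgNAT10 and 171 in HOS NC, shifts of 1.14 and -1.63. The 986 bp peak (chr2:111250884-111251870) had 121 counts in 143B labelled sgNAT10 and 338 in 143B NC, and 527 in HOS labelled sgNAT10 and 241 in HOS NC, shifts of -1.97 and 0.78. A sum over this gene, -0.58 in 143B and 0.18 in HOS, shows neither.

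MIR4527HG was the host gene with the lowest values in 143B labelled sgNAT10: 6 of 6 peaks were negative in 143B and positive in HOS. Its summed counts were 17 in 143B labelled sgNAT10 and 227 in 143B NC, and 410 in HOS labelled sgNAT10 and 56 in HOS NC. MIR3681HG differed by peak, since one at the end of the span (chr2:12578185-12578375) had 419 counts in 143B labelled sgNAT10 and 290 in 143B NC, and 440 in HOS labelled sgNAT10 and 1001 in HOS NC. That peak was level in 143B (0.03) and lower in HOS labelled sgNAT10 (-1.53), whereas another was higher in both lines (1.99 and 1.51). MIR222HG, host of the growth-linked microRNAs miR-221 and miR-222, had 22 counts in 143B labelled sgNAT10 and 53 in 143B NC, and 26 in HOS labelled sgNAT10 and 32 in HOS NC. Neither MIR222HG library labelled sgNAT10 exceeded its NC library. MIR137HG was close in 143B, with 35 counts in the library labelled sgNAT10 and 33 in NC, and had 10 in HOS labelled sgNAT10 and 35 in HOS NC. MIR4300HG had peaks of unlike order, at 2.35 in 143B (1.63 to 3.30) and 0.71 in HOS at chr11:82101090-82101198, and at -1.54 in 143B (-1.96 to -1.17) and -0.51 in HOS at chr11:82143070-82143182. MIR4432HG had 243 counts in 143B labelled sgNAT10 and 56 in 143B NC, and was level in HOS with 75 in the library labelled sgNAT10 and 58 in NC. MIR100HG, host of miR-100 and let-7a-2, had 8 peaks, 6 positive in 143B and 5 in HOS. Its peak at chr11:122358346-122358566 had 105 counts in 143B labelled sgNAT10 and 52 in 143B NC, and 124 in HOS labelled sgNAT10 and 144 in HOS NC.

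Of the lncRNA-gene peaks with a mean of 50 or more, LOC105369890 (108 bp, chr12:90067092-90067200) had the highest smaller shift of the 2 lines. It had 354 counts in 143B labelled sgNAT10 and 19 in 143B NC, and 275 in HOS labelled sgNAT10 and 62 in HOS NC, shifts of 3.66 (3.06 to 4.47) and 1.78 (1.40 to 2.22). LOC105375592 (chr7:155334600-155336124) was the only one of the 10 with a width of 1000 bp or more, with 385 counts in 143B labelled sgNAT10 and 61 in 143B NC, and 57 in HOS labelled sgNAT10 and 19 in HOS NC. The next in order after LOC105369890 were LINC00504, LOC124901579 and LINC01667. LINC00504 (chr4:14782140-14782519) had 144 counts in 143B labelled sgNAT10 and 28 in 143B NC, and 42 in HOS labelled sgNAT10 and 10 in HOS NC. The 10 highest by this rule had shifts of 1.15 to 3.66 in 143B and 1.17 to 1.78 in HOS, and none had more than 385 counts in any library. Each had an edgeR adjusted p of 0.981.

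Lower in both lines by the same ranking were 10 peaks in 8 genes, with shifts of -1.20 to -0.62 in 143B and -1.68 to -0.81 in HOS. LOC102724701, on the short arm of chromosome 21, gave 3 of them. Its peak at chr21:6565956-6566060 had 138 counts in 143B labelled sgNAT10 and 205 in 143B NC, and 113 in HOS labelled sgNAT10 and 222 in HOS NC. LOC102725231 (chr5:180474656-180474830) had 229 counts in 143B labelled sgNAT10 and 274 in 143B NC, and 360 in HOS labelled sgNAT10 and 851 in HOS NC. RNF32-DT, the divergent transcript of RNF32, had 120 counts in 143B labelled sgNAT10 and 147 in 143B NC, and 58 in HOS labelled sgNAT10 and 93 in HOS NC. Only the LOC102724701 peak at chr21:6565956-6566060 reached 2-fold in both lines among these 10.

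Opposite movement was also seen in a narrow peak. LOC107984704 (108 bp, chr14:82051097-82051205) had 261 counts in 143B labelled sgNAT10 and 31 in 143B NC, and 18 in HOS labelled sgNAT10 and 202 in HOS NC, shifts of 2.54 (2.04 to 3.16) and -3.76 (-4.62 to -3.14). DIRC3, known from a translocation in familial renal cancer, was higher in 143B: it had 96 counts in 143B labelled sgNAT10 and 16 in 143B NC, and was level in HOS with 68 in the library labelled sgNAT10 and 55 in NC. LOC101448202 (344 bp) had 179 counts in 143B labelled sgNAT10 and 31 in 143B NC, and 18 in HOS labelled sgNAT10 and 27 in HOS NC, shifts of 2.0 and -0.90 (-1.88 to -0.02). Other peaks were high in HOS instead. LOC107985179 (chr18:71492749-71492927) had 11 counts in 143B labelled sgNAT10 and 26 in 143B NC, and 2810 in HOS labelled sgNAT10 and 2 in HOS NC, so its HOS shift of 9.61 (8.25 to 13.15) rests on 2 NC counts. UFL1-AS1 (chr6:96321863-96321967) had 3 counts in 143B labelled sgNAT10 and 10 in 143B NC, and 211 in HOS labelled sgNAT10 and 2 in HOS NC. Outside HOS labelled sgNAT10 both had at most 26 counts. In LINC02698 (chr11:115727125-115727299) the counts were 13 in 143B labelled sgNAT10 and 43 in 143B NC, and 222 in HOS labelled sgNAT10 and 6 in HOS NC. In LOC107985179, UFL1-AS1 and LINC02698 the library HOS labelled sgNAT10 alone was high, and they reached a mean count of 50 only through it.

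A further set of peaks, of any width, was high mainly in 143B labelled sgNAT10. Of the 440 lncRNA-gene peaks tested with a mean of 50 or more (without chromosome Y and the XIST locus), 19 (4.32%) were higher by 4-fold or more in 143B, against 2.18% of all 9614 peaks of that coverage. Exactly 108 bp was the width of 7 of the 19, and of 38 of the 210 peaks in all that met this rule. LOC102724687 (chr8:66281852-66281960) had 6734 counts in 143B labelled sgNAT10 and 581 in 143B NC, and 2710 in HOS labelled sgNAT10 and 1250 in HOS NC. LOC105370214 (chr13:56688411-56688610) had 5553 counts in 143B labelled sgNAT10 and 445 in 143B NC, and 1759 in HOS labelled sgNAT10 and 795 in HOS NC. Single peaks of LOC107985675, LINC01250 and LINC00200 followed the same order and were named after their values were seen. Their shifts were 2.97, 2.77 and 2.59 in 143B and 1.01, 1.10 and 0.96 in HOS. The genes did not move as a whole. Another LOC107985675 peak (chrX:7961813-7962001) had -0.72 in 143B and -0.28 in HOS. The other tested LINC01250 peaks ran from -4.91 to 0.76 in 143B and from 0.49 to 2.71 in HOS. In HOS 16 of the 19 were positive, with a median of 0.76. Among all 210, 149 were positive in HOS, with a median of 0.54.

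Between the lines, 143B over HOS with genotype as a block, 0 of 2183 lncRNA-gene peaks passed edgeR (background 0.0%), with a smallest adjusted p of 0.179. At an unadjusted p under 0.05 there were 197, of which 161 were higher in 143B and 36 in HOS. That is 9.02%, against 8.91% of all peaks. After its own filter on low counts, DESeq2 adjusted 16877 peaks, 1148 of them in lncRNA genes, and called 15 (0.0889%), of which 0 in lncRNA genes. Before adjustment and that filter it had 104 lncRNA-gene peaks under 0.05 (4.76%, against 8.14% of all 24467 peaks), 48 higher in 143B and 56 in HOS.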

How the data were processed

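The deposited values are counts of reads in peak intervals, not normalized, per the file headers, and both lines share 1 set of intervals. The headers name line and genotype but not the assay. The columns are read here as the 4 acRIP libraries, since the tables carry RIP in their names. The other samples among the 8 labelled were inputs and were not used here, so RNA level and enrichment cannot be told apart. The tables also held 7 unnamed columns, which were not used. The submitters' processing notes name GRCh38, FastQC, STAR, SAMtools and deepTools. Not given in the sources used here are the tools that called and counted peaks, strandedness, the counting of reads with several matches in the genome, and the base that interval starts count from.

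Peaks were joined by name and set against RefSeq gene spans (59792 genes, GRCh38.p14). The main test was edgeR 4.0.16 (R 4.3.3), glmQLFit and glmQLFTest with cell line as a block on all peaks, TMM factors, filterByExpr (minimum count 10, minimum total 15), Benjamini-Hochberg adjustment and a threshold of 0.05. It was tested on simulated data. The 2 lines were the only repeats of a genotype, and the block removes the difference in level between them. The p-values between genotypes therefore reflect how far the genotype shift differed between these lines, with spread estimated in part over all peaks. In the comparison between lines, genotype was the block and the genotypes were the only repeats of a line. DESeq2 1.42.0, limma 3.58.1, other scalings, other filters and a fit without the block were alternatives. Within a line there is no test, and a difference of 2-fold is used as the threshold. Shares carry 95% Wilson intervals, for counting error only. Groups were taken from the sample titles.

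The members, the gene lists and the naming rule were chosen with earlier results of these data known. Named were the 12 genes with most counts, the 10 peaks highest and the 10 lowest in both lines and the 5 most opposite in each direction (mean count of 50 or more), listed genes with a peak of mean count 20 or more, the 3 genes with most peaks, and peaks that passed the test. Others are said to have been picked after their values were seen. Peaks on chromosome Y and at the XIST locus were not named.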

Additional observations from a re-analysis of the deposited data

Results flagged for a closer look

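Several results moved past 2-fold in opposite directions in the 2 lines, with 1 library per line and genotype, and the difference between the lines was not tested. The values below are the log2 shift (labelled sgNAT10 over NC) in 143B minus that in HOS. For the median of the lncRNA-gene peaks of 1000 bp or more the difference was -3.1. Among single peaks it was -6.56 at the start of PANTR1 and -6.56 in MIR4527HG (chr18:47584400-47585227), where both HOS libraries and 143B NC had at least 23 counts and 143B labelled sgNAT10 had 8. In narrow peaks it was -11.25 in LOC107985179, -7.74 in UFL1-AS1 and -6.8 in LINC02698, each carried mainly by HOS labelled sgNAT10. These peaks reached the mean count of 50 needed to be ranked only through that library, so a high HOS shift was built into their choice. In 143B the intervals for LOC107985179 (-2.90 to -0.67) and UFL1-AS1 (-4.73 to -0.28) also held shifts under 2-fold. The reverse order was found in LOC107984704, with 6.31, and in MIR4435-2HG, with 2.77.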

How the results depend on the processing

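The median 143B shift of lncRNA-gene peaks, 0.23, was 0.15 with DESeq2-type size factors, 0.43 with upper quartile factors, 0.57 with library totals alone, 0.31 with TMM computed without the ribosomal RNA block and 0.56 over all lncRNA-gene peaks, tested or not. It turned to -0.31 at a mean count of 50 or more. The HOS median, 0.68, was 0.53, 0.59, 1.21 and 0.42 under the same 4 scalings in that order, 0.54 with a prior count of 5, 0.52 at a mean count of 50 or more and 0.55 with 1 peak per gene, an alternative chosen after seeing the data. Peaks higher by 2-fold in 143B, 500, numbered 74 at a mean count of 50 or more and 1108 without the low-count filter, and those lower, 281, numbered 120 at that coverage and 180 under 300 bp. Peaks higher in HOS, 806, numbered 1277 with library totals alone and 117 at a mean count of 50 or more. Those lower in HOS, 78, numbered 25 with library totals alone, 126 without the ribosomal RNA block in TMM, 42 with a prior count of 5, 22 at a mean count of 50 or more and 193 without the low-count filter. Counts at a higher coverage come from fewer peaks; for the other moves the cause was not tested.

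The edgeR count of lncRNA-gene peaks between genotypes, 0, became 3 at a mean count of 100 or more. Of those 3, LINC00351 and LOC105372529 were not tested in the main fit. The count stayed at 0 in the other alternatives, including the fit with no replicate block (0 called, 68 at an unadjusted p under 0.05) and, for 143B over HOS, with no replicate block (0 called). Shares of all counts in 143B labelled sgNAT10, 143B NC, HOS labelled sgNAT10 and HOS NC were 1.66%, 1.28%, 1.81% and 1.49%, against 2.52%, 2.24%, 3.15% and 3.75% of counts outside the ribosomal RNA block and 1.13%, 0.69%, 1.19% and 0.463% without LINC01666. A scaling moves every peak of a line by 1 amount, at most 0.34 in 143B and 0.58 in HOS (library totals alone), so no shift past 2-fold can change sign under it. Of the 169 named peaks, 2 to 12 changed sign in 143B and 5 to 18 in HOS under the 4 other scalings. No replicate could be left out, since each group has 1 library. The median lncRNA-gene peak has a mean count of 14.5, where a few reads decide a fold.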
